A study of Mus musculus with 14 samples.

Results

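The genes described here are 10 antioxidant genes of the glutathione and NRF2 pathway: Nfe2l2, Nqo1, Gclc, Gclm, Slc7a11, Txnrd1, Srxn1, Prdx1, Gsr and Gpx4. They were found by matching the RefSeq accession that each array probe carries to their symbols. All 10 had a probe, among the 20660 genes so named. Their RNA was measured on 14 one-colour microarrays of peritoneal cells from C57BL/6 mice kept at NYU and the University of Edinburgh, 1 array per sample. The cells had been sorted as positive for CD11b and for the macrophage surface protein that Adgre1 encodes. Resident cells came from mice that received PBS as vehicle (PBS, 3 arrays) or IL-4 complex (IL-4c, 4 arrays), in which 5 µg of IL-4 is bound to 25 µg of the antibody 11B11 and so stays active longer. Elicited cells came from mice that received 2 ml of 4% thioglycollate medium (Thio, 3 arrays), an irritant broth that draws monocytes from the blood into the cavity, or thioglycollate together with IL-4c (Thio+IL-4c, 4 arrays). All injections were into the peritoneum, and the labels give neither the age of the mice nor the time of collection. They also leave unsaid whether replicates were separate animals, so a p-value here covers no more than the spread among the arrays, which may be technical.

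NRF2, the protein of Nfe2l2, is a transcription factor that the adaptor KEAP1 normally delivers for degradation. Oxidants and electrophiles modify KEAP1, after which NRF2 accumulates, pairs with small MAF proteins and binds antioxidant response elements near genes that make and recycle glutathione and thioredoxin. Macrophages meet oxidants of their own NADPH oxidase during phagocytosis, and they import cystine and make glutathione to buffer them. Glutathione also feeds the peroxidases that keep membrane lipids from oxidising.

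Promoter sequences are shown in full for Srxn1 and Prdx1, which hold a composite site of NRF2 with small MAF proteins, and for Slc7a11, which holds amino acid response elements. RefSeq windows of 300 bases on GRCm38.p6, from 250 before to 50 after an annotated start, were at hand for 8 of the 10 genes, as 13 windows, 3 of them for Txnrd1 and 4 for Gpx4. Each line below is the 250 bases before the start, 5′ to 3′ on the strand of the gene, and capitals mark matches to the motifs named after them. The Srxn1 stretch is chr2:152105274-152105523 on the plus strand, that of Prdx1 is chr4:116685349-116685598 on the plus strand, and that of Slc7a11 is chr3:50443614-50443863 on the minus strand, inside the annotated span of the gene, which holds a start further upstream.
Srxn1: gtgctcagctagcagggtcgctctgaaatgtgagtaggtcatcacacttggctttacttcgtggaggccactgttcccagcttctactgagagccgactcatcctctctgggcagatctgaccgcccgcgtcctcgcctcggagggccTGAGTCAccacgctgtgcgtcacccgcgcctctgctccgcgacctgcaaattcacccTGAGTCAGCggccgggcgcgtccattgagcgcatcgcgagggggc
Prdx1: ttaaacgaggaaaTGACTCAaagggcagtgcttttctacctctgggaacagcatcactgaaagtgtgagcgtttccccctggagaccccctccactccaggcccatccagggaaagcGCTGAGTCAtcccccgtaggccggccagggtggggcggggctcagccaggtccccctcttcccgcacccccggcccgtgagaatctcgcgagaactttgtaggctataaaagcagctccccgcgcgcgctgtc
Slc7a11: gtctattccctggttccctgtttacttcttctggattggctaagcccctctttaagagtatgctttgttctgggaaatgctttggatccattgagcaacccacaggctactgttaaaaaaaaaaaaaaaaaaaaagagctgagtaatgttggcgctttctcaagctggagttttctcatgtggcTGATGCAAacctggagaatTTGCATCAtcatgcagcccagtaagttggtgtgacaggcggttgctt
Shorter stretches show the match to the core of the antioxidant response element in another 3 windows, at chr3:122245423-122245431 for Gclm, chr10:82859114-82859122 for Txnrd1 and chr2:75704895-75704903 for Nfe2l2.
Gclm: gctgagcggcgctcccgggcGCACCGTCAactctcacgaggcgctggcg
Txnrd1: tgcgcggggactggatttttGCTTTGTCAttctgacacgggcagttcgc
Nfe2l2: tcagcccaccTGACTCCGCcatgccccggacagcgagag

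All motifs were searched on both strands. The core TGACNNNGC was found for 5 genes, Nfe2l2, Gclm, Txnrd1, Prdx1 and Srxn1, and in 12.4% of all 32851 windows of that length. The Srxn1 match to it lies after the start, in the transcribed part, and is not printed. The longer site of NRF2 with small MAF proteins, TGANTCAGC, was found before Srxn1 and Prdx1 and in 1.19% of all windows. It was added to the search after the other matches had been seen. It always holds the AP-1 site TGANTCA, found in 7.81% of windows, and in Prdx1 the same bases on the same strand also match the core. The amino acid response element TGATGNAA, which ATF4 binds, was found at 2 places before Slc7a11 and in 3.97% of all windows. The STAT6 palindrome, in which TTC and GAA stand NNNN apart (6.95% of windows), and the E-box CACGTG (7.15%) were found in none of the 13 windows. These matches are descriptions of letters in a window and not measured binding.

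A level below is a log2 processed signal from which the 75th percentile for its array was subtracted, so 0 is the brightness of that percentile and each step of 1 is a doubling. Levels of different genes come from different probes and are not compared. In bulk RNA, fewer cells of a type and less RNA per cell cannot be told apart. The 75th percentile ranged from 1275 to 1818 on the PBS arrays and from 2044 to 3883 on the others. The scanner software marked 79.2% to 95.7% of probes per array as well above background. Arrays within a group correlated at r of 0.957 to 0.988 across genes, except that Thio 1 lowered the range in Thio to 0.85. Slide 1 held all PBS and IL-4c arrays and Thio 1, and slide 2 held Thio 2, Thio 3 and all Thio+IL-4c arrays. Thioglycollate and slide therefore nearly coincide, and Thio 1 is the elicited array that shared a slide with resident cells. All 10 genes were well above background on every array, with the exception of Slc7a11, which was not on any PBS array.

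**Figure D1:**
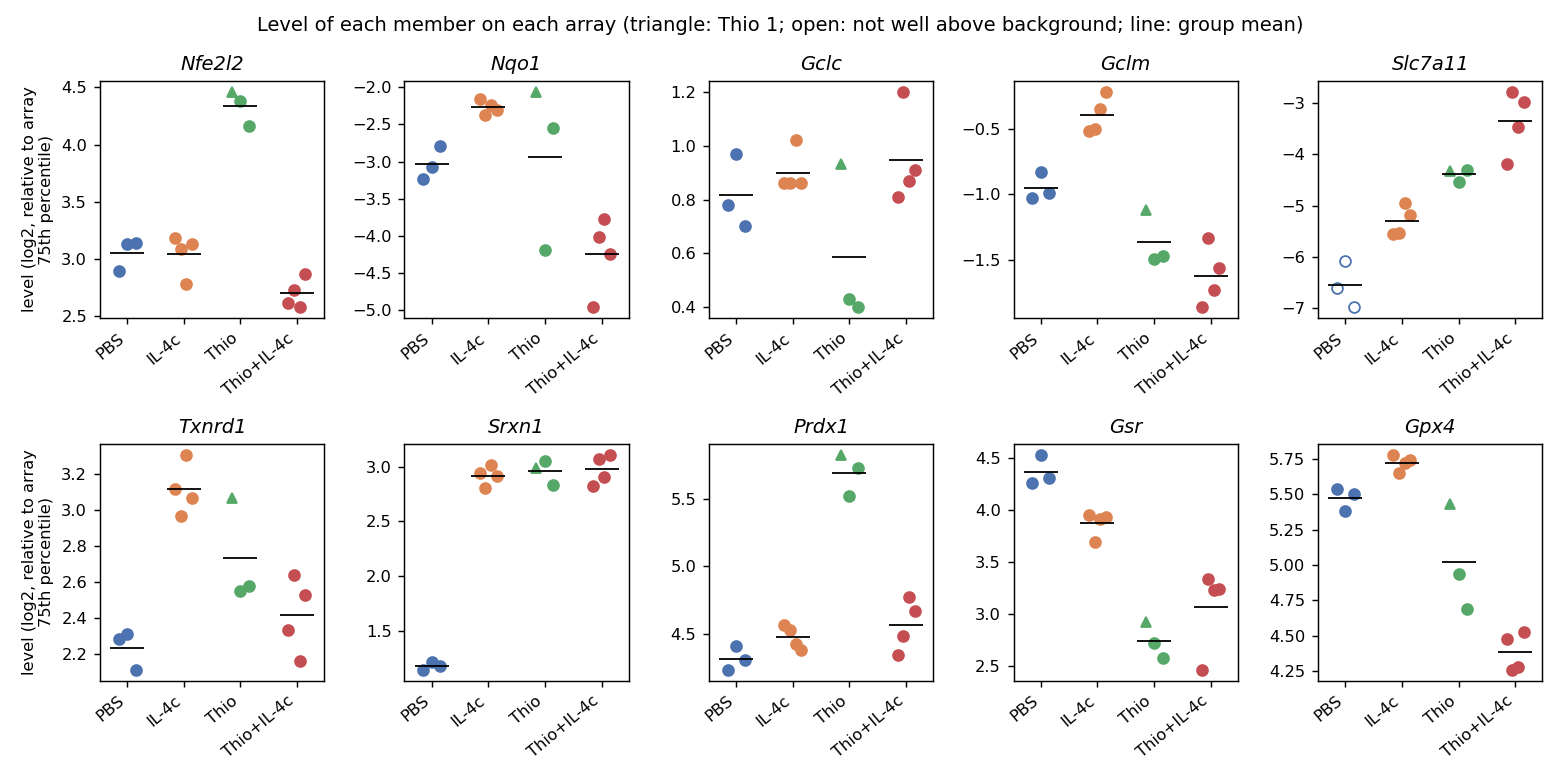
Level of each of the 10 genes on each of the 14 arrays, as log2 signal relative to the 75th percentile of the array, with a line at each group mean. Open circles are not well above background and triangles are Thio 1. Srxn1 lies near 1.2 on the 3 PBS arrays and between 2.80 and 3.11 on the other arrays, while Nfe2l2 and Prdx1 stand apart on the 3 Thio arrays.

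Nfe2l2 (chr2:75675513-75704663, GRCm38.p6), the transcription factor, was at 2.90, 3.13 and 3.14 on the PBS arrays, at 3.18, 3.09, 2.78 and 3.13 with IL-4c, at 4.46, 4.38 and 4.16 with Thio, and at 2.62, 2.73, 2.58 and 2.87 with Thio+IL-4c. The Thio arrays were the highest and overlapped with no other group, while the PBS and IL-4c arrays overlapped fully. The order of the group means was Thio (4.33 ± 0.15, SD, n = 3), PBS (3.06 ± 0.13, n = 3), IL-4c (3.04 ± 0.18, n = 4) and Thio+IL-4c (2.70 ± 0.13, n = 4), of which PBS and IL-4c do not differ beyond their spread.

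Slc7a11 (chr3:50364936-50499087) encodes the transport subunit of the cystine and glutamate exchanger that supplies cysteine for glutathione. It was at -6.61, -6.07 and -6.98 on the PBS arrays, at -5.55, -5.53, -4.94 and -5.19 with IL-4c, at -4.33, -4.54 and -4.30 with Thio, and at -4.18, -2.78, -3.47 and -2.98 with Thio+IL-4c. The 4 groups did not overlap, in the order PBS, IL-4c, Thio, Thio+IL-4c, and the PBS values are only upper bounds.

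Gclc and Gclm encode the catalytic and the modifier subunit of glutamate-cysteine ligase, the rate-limiting enzyme of glutathione synthesis. Gclc (chr9:77754535-77794489) was at 0.78, 0.97 and 0.70 on the PBS arrays, at 0.86, 0.86, 1.02 and 0.86 with IL-4c, at 0.93, 0.43 and 0.40 with Thio, and at 0.81, 1.20, 0.87 and 0.91 with Thio+IL-4c. Its groups overlapped, and Thio 2 and Thio 3 were the lowest arrays while Thio 1 lay among the others. Gclm (chr3:122245487-122267215) was at -1.03, -0.83 and -0.99 on the PBS arrays, at -0.52, -0.50, -0.35 and -0.22 with IL-4c, at -1.12, -1.49 and -1.47 with Thio, and at -1.86, -1.33, -1.73 and -1.56 with Thio+IL-4c. The modifier subunit was highest on the 4 IL-4c arrays, next on PBS, and lower on all elicited arrays, whose 2 groups overlapped.

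Gsr and Gpx4 recycle and use glutathione: Gsr encodes glutathione reductase and Gpx4 the peroxidase that reduces lipid hydroperoxides in membranes. Gsr (chr8:33653238-33698162) was at 4.26, 4.53 and 4.30 on the PBS arrays, at 3.95, 3.69, 3.91 and 3.93 with IL-4c, at 2.92, 2.72 and 2.57 with Thio, and at 2.46, 3.33, 3.23 and 3.24 with Thio+IL-4c. Resident arrays were all above elicited arrays, and Thio+IL-4c 1 lay below every Thio array while the other 3 lay above them. Gpx4 (chr10:80047166-80056439) was at 5.54, 5.38 and 5.50 on the PBS arrays, at 5.78, 5.65, 5.72 and 5.74 with IL-4c, at 5.43, 4.94 and 4.69 with Thio, and at 4.48, 4.26, 4.28 and 4.53 with Thio+IL-4c. Its group order was IL-4c, PBS, Thio, Thio+IL-4c, and Thio 1 was the one array that overlapped with a neighbouring group, PBS.

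Txnrd1 and Nqo1 encode NADPH-dependent reductases, of thioredoxin and of quinones. Txnrd1 (chr10:82833951-82897724) was at 2.28, 2.31 and 2.11 on the PBS arrays, at 3.12, 2.97, 3.31 and 3.07 with IL-4c, at 3.07, 2.55 and 2.58 with Thio, and at 2.33, 2.64, 2.16 and 2.53 with Thio+IL-4c. IL-4c arrays were the highest apart from Thio 1, which reached their range, and the Thio+IL-4c arrays overlapped with PBS. Nqo1 (chr8:107388225-107403205) was at -3.24, -3.07 and -2.79 on the PBS arrays, at -2.16, -2.37, -2.24 and -2.30 with IL-4c, at -2.06, -4.19 and -2.55 with Thio, and at -4.96, -4.01, -3.77 and -4.24 with Thio+IL-4c. Its Thio arrays were widely spread (-2.94 ± 1.11, SD, n = 3), Thio 1 being the highest of all arrays and Thio 2 within the range of Thio+IL-4c.

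Prdx1 and Srxn1 act on hydrogen peroxide together: Prdx1 encodes a peroxiredoxin that reduces it, and Srxn1 sulfiredoxin, which restores peroxiredoxins that have been overoxidised. Prdx1 (chr4:116685599-116700000) was at 4.23, 4.41 and 4.30 on the PBS arrays, at 4.56, 4.53, 4.42 and 4.38 with IL-4c, at 5.83, 5.52 and 5.73 with Thio, and at 4.34, 4.48, 4.77 and 4.67 with Thio+IL-4c. The 3 Thio arrays stood above all others, whose groups overlapped. Srxn1 (chr2:152105524-152111376) was at 1.14, 1.21 and 1.18 on the PBS arrays, at 2.94, 2.80, 3.01 and 2.91 with IL-4c, at 2.99, 3.05 and 2.83 with Thio, and at 2.82, 3.07, 2.90 and 3.11 with Thio+IL-4c. The 3 treated groups overlapped with each other, at means of 2.92 ± 0.09 (SD, n = 4), 2.96 ± 0.11 (n = 3) and 2.97 ± 0.14 (n = 4), and none came near PBS at 1.18 ± 0.04 (n = 3).

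The first comparison asked what IL-4c changed in resident macrophages, and all of its arrays shared slide 1. Srxn1, Slc7a11, Txnrd1 and Gclm rose, genes of peroxiredoxin repair, cystine uptake, thioredoxin reduction and glutathione synthesis, and no gene of the 10 fell. A gene is called at an adjusted p under 0.05 in limma, with Benjamini-Hochberg adjustment over all 20347 genes tested. So 4 of the 10 genes were called, where 32.2% of all genes were: 4 were higher against 16.9% of all genes, and 0 were lower against 15.3%. At an unadjusted p under 0.05, 1 was lower, Gsr. Srxn1 rose 3.33-fold (log2 difference 1.74, SE 0.10, adjusted p = 1.9e-07), a difference larger than that of 96.5% of genes. Txnrd1 rose 1.85-fold (0.89, SE 0.16, adjusted p = 0.00082) and Gclm 1.47-fold (0.55, SE 0.15, adjusted p = 0.011). Slc7a11 rose at least 2.38-fold (adjusted p = 0.0088), set against the faintest signal that still counts as well above background on each PBS array, or the signal of its own probe where that was higher. This bound holds for the processed signal scaled to the 75th percentile: the measured fold of Slc7a11 was 2.13 under quantile normalization and 1.65 after normexp background correction.

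The other 6 genes did not pass the test. Nfe2l2 differed by -0.01 (95% interval -0.29 to 0.27), Gclc by 0.08 (-0.24 to 0.40), Prdx1 by 0.16 (-0.11 to 0.43) and Gpx4 by 0.25 (-0.08 to 0.58). Nqo1 differed by 0.77 (SE 0.42, adjusted p = 0.21), although its 4 IL-4c arrays lay above the 3 PBS arrays, since its spread in the joint fit includes that of the Thio arrays. In a fit of PBS and IL-4c alone it was called (SE 0.12, adjusted p = 0.0023), as were Gsr at -0.49 (0.0075) and Gpx4 at 0.25 (0.021). Gsr was at an adjusted p of 0.075 in the joint fit, and its other probe was called at -0.62 (0.011, among 54427 probes tested). Arrays of the 2 groups did not overlap for 7 of the 10 genes, against 53.3% of all genes. The median difference of the 10 genes was 0.40, against -0.01 over all genes. In the authors' deposited log2 values Slc7a11 differed by -0.15 (adjusted p = 0.64), so its direction depends on the source of the values, and under quantile normalization its 1.09 had an adjusted p of 0.052.

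**Figure D2:**
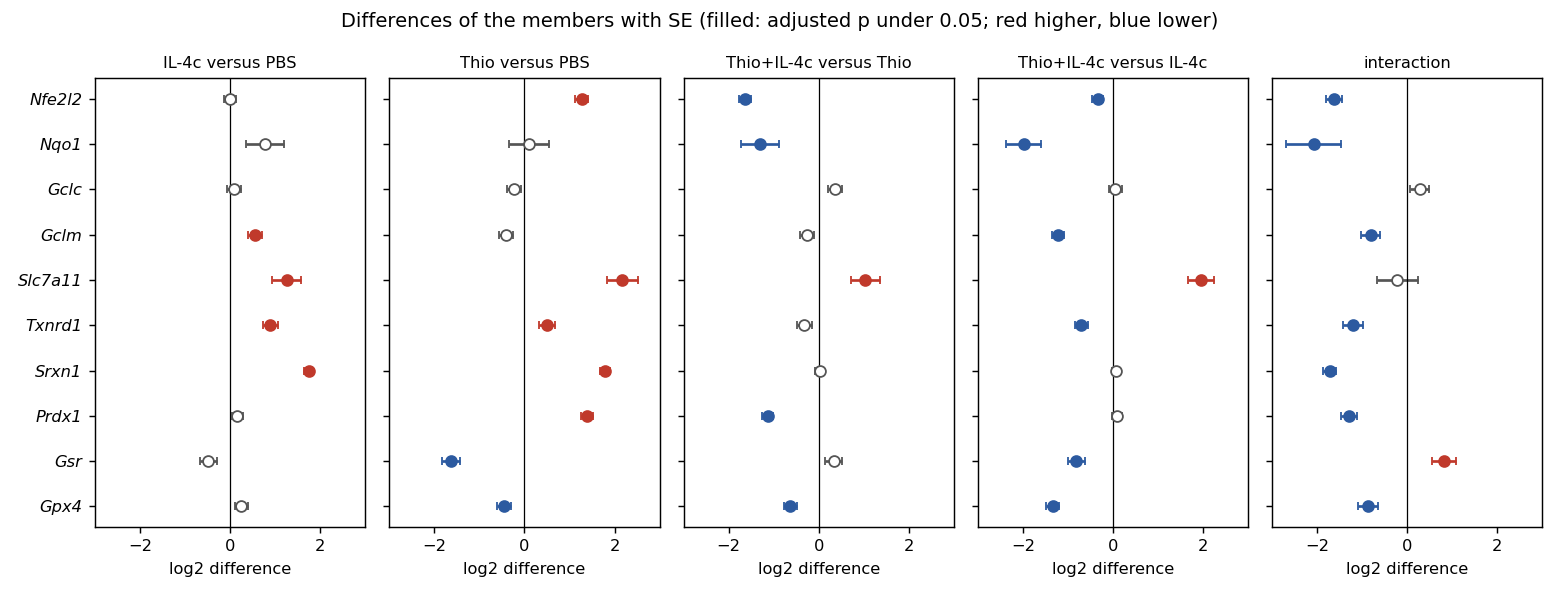
Log2 difference of each of the 10 genes in the 5 comparisons, with SE as bars. Filled points passed an adjusted p of 0.05, in red where higher and in blue where lower. Srxn1 is at 1.74 for IL-4c and 1.78 for Thio against PBS and at 0.02 for Thio+IL-4c against Thio.

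The second comparison set elicited macrophages against resident ones without IL-4c. Nfe2l2, Srxn1, Prdx1, Slc7a11 and Txnrd1 were higher in elicited cells, and Gsr and Gpx4 were lower. So 7 of 10 genes were called, where 44.5% of all genes were: 5 were higher against 20.2%, and 2 were lower against 24.2%. Nfe2l2 was 2.42-fold higher (log2 difference 1.27, SE 0.14, adjusted p = 1.8e-05), and Prdx1 was 2.61-fold higher (1.38, SE 0.13, adjusted p = 6e-06). Srxn1 was 3.43-fold higher (1.78, SE 0.11, adjusted p = 1.7e-07), close in size to the IL-4c difference, with which it shares the PBS arrays. Slc7a11 was at least 4.49-fold higher (adjusted p = 0.00034) on the same scale, with a measured fold of 2.81 under quantile normalization and 1.79 after normexp. Txnrd1 was 1.42-fold higher (0.50, SE 0.17, adjusted p = 0.03). Gsr was 3.09-fold lower (-1.63, SE 0.21, adjusted p = 7.1e-05), with -1.83 on its other probe, and Gpx4 was 1.37-fold lower (-0.46, SE 0.16, adjusted p = 0.04).

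Gclm at -0.41 (adjusted p = 0.052), Gclc at -0.23 (0.24) and Nqo1 at 0.10 (0.87) did not pass. The 2 groups did not overlap for 7 of 10 genes, against 42.6% of all genes, and the median difference was 0.30 against -0.09 over all genes. Within slide 1, where the comparison is Thio 1 against the PBS arrays and Thio 1 is assumed to vary like the other groups, Nfe2l2 was at 1.40, Prdx1 at 1.52, Srxn1 at 1.82, Slc7a11 at 2.23, Txnrd1 at 0.84 and Gsr at -1.44, each still called, while Gpx4 was at -0.04 (adjusted p = 0.87) and Gclc at 0.11 (0.67). Without Thio 1, Txnrd1 lost its call at 0.34 (0.061), Gclc and Gclm were called lower at -0.40 (0.015) and -0.53 (0.01), Nqo1 turned to -0.34 (0.50), and Gpx4 stayed called at -0.66 (0.00037). Leaving out Thio 3 took Gpx4 to -0.29 (0.17), and it also lost its call without any 1 array of PBS, any 1 of IL-4c, Thio 2, Thio+IL-4c 2 or Thio+IL-4c 3, between -0.50 and -0.41. Txnrd1 lost its call without any 1 PBS array, at 0.44 to 0.54. With only these 2 groups in the fit both were lost (adjusted p = 0.13 for Txnrd1 and 0.20 for Gpx4), and Gpx4 was at -0.09 (0.55) under quantile normalization. In the authors' deposited log2 values Slc7a11 differed by 0.01 (adjusted p = 0.97).

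The third comparison asked what IL-4c changed in elicited macrophages. Nfe2l2, Prdx1, Nqo1 and Gpx4 fell and Slc7a11 rose. That made 5 of 10 genes called, where 39.4% of all genes were: 1 was higher against 16.2%, and 4 were lower against 23.1%. Nfe2l2 fell 3.10-fold (-1.63, SE 0.13, adjusted p = 1.3e-06) and Prdx1 2.19-fold (-1.13, SE 0.12, adjusted p = 1.5e-05), so that their Thio+IL-4c arrays overlapped with those of IL-4c in resident cells. The other Prdx1 probe gave -1.23. Gpx4 fell 1.55-fold (-0.63, SE 0.15, adjusted p = 0.0059). Its mean with Thio, 5.02, was below the 5.47 of PBS, but Thio 1 lay within the PBS range. As given above, that difference lost its call in many settings. Slc7a11 rose 2.05-fold (1.03, SE 0.32, adjusted p = 0.022), and Nqo1 fell 2.48-fold (-1.31, SE 0.42, adjusted p = 0.028) although its groups overlapped.

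Srxn1, which rose with IL-4c in resident cells, differed here by 0.02 (95% interval -0.20 to 0.24, adjusted p = 0.89). Txnrd1 at -0.32 (adjusted p = 0.12), Gclm at -0.26 (0.17), Gclc at 0.36 (0.07) and Gsr at 0.33 (0.20) did not pass either, and the other Gsr probe went the opposite way at -0.20. The groups did not overlap for 4 of 10 genes, against 44.6% of all genes, and the median was -0.29 against 0.03 over all genes. Within slide 2, which is the same as leaving out Thio 1, Nfe2l2 was at -1.57, Prdx1 at -1.06, Gpx4 at -0.43 and Slc7a11 at 1.06, each still called, Nqo1 lost its call at -0.87 (adjusted p = 0.11), and Gclc gained one at 0.53 (0.004). Nqo1 also lost its call without Thio 3 (-1.12, 0.087), Thio+IL-4c 1 (-1.07, 0.07) or Thio+IL-4c 4 (-1.31, 0.053), and Slc7a11 lost its call without Thio 2 (0.96, 0.057), Thio+IL-4c 2 (0.84, 0.06) or Thio+IL-4c 4 (0.91, 0.06). With only Thio and Thio+IL-4c in the fit, Nqo1 (adjusted p = 0.14), Slc7a11 (0.074) and Gpx4 (0.068) lost their calls. Without Thio+IL-4c 1, the array that stood apart in Gsr, that gene was called at 0.53 (0.0062).

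**Figure D3:**
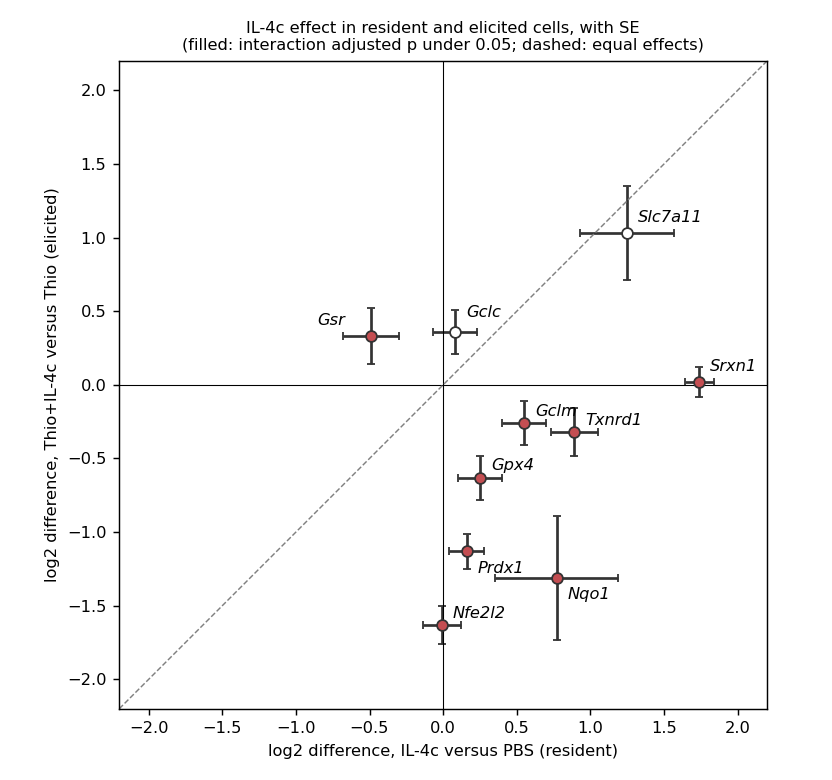
Log2 difference made by IL-4c in elicited cells (vertical axis) against that in resident cells (horizontal axis) for the 10 genes, with SE as bars and a dashed line where both are equal. Filled points passed the test of the difference between the 2 effects. Slc7a11 and Gclc are the open points. Slc7a11 is plotted at 1.25 and 1.03. Its PBS levels are upper bounds, so 1.25 is a lower bound and its distance from the line is not known.

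Whether IL-4c acted differently in the 2 kinds of cell was tested as an interaction, in which the effect in resident cells is subtracted from that in elicited cells. The effect was lower in elicited cells for Nqo1, Srxn1, Nfe2l2, Prdx1, Txnrd1, Gpx4 and Gclm, and higher for Gsr. So 8 of 10 genes were called, where 32.7% of all genes were: 7 were lower against 19.9%, and 1 was higher against 12.7%. The median of the 10 was -1.04, against -0.05 over all genes. These genes fell into different patterns. Srxn1 (-1.72, SE 0.14, adjusted p = 5.5e-06) rose in resident cells and did not pass in elicited ones, where it was at 2.96 without IL-4c. Nfe2l2 (-1.62, SE 0.18, adjusted p = 4.4e-05) and Prdx1 (-1.29, SE 0.17, adjusted p = 0.00015) did not pass in resident cells and fell in elicited ones. Txnrd1 (-1.21, SE 0.22, adjusted p = 0.0013) and Gclm (-0.81, SE 0.21, adjusted p = 0.0098) rose in resident cells and did not pass in elicited ones. Gpx4 (-0.88, SE 0.22, adjusted p = 0.0081) and Nqo1 (-2.08, SE 0.60, adjusted p = 0.019) fell in elicited cells after values above 0 in resident ones that did not pass.

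Slc7a11 gave an interaction of -0.22 (95% interval -1.20 to 0.76, adjusted p = 0.73) and Gclc of 0.28 (-0.17 to 0.73, adjusted p = 0.32). Because the PBS levels of Slc7a11 are upper bounds, its -0.22 is an upper bound too, on this scale, and its interval does not cover that limit. The test therefore cannot decide whether IL-4c changed Slc7a11 equally in both kinds of cell. Gsr was the gene with the opposite sign, at 0.82 (SE 0.27, adjusted p = 0.038), and the weakest call: its other probe gave 0.42 (0.18), and the authors' deposited log2 values 0.38 (0.31). It also lost its call without any array but Thio 1 and Thio+IL-4c 1, at 0.73 to 0.87. With slide as a block the interaction kept the call of all 8 genes, with Nqo1 at -1.64 (0.033) and Txnrd1 at -1.04 (0.0011), and Gclc joined them at 0.45 (0.043). In the authors' deposited log2 values Slc7a11 was called at 0.88 (0.035), the opposite sign.

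The last comparison set elicited against resident cells when both had received IL-4c. Gpx4, Gclm, Nqo1, Gsr, Txnrd1 and Nfe2l2 were lower in elicited cells and Slc7a11 was higher. That is 7 of 10 genes called, where 70.0% of all genes were: 6 were lower against 42.2%, and 1 was higher against 27.9%. Gpx4 was 2.52-fold lower (-1.34, SE 0.14, adjusted p = 9.8e-06) and Gclm 2.33-fold lower (-1.22, SE 0.13, adjusted p = 1.4e-05). Nqo1 was 3.94-fold lower (-1.98, SE 0.39, adjusted p = 0.00086) and Slc7a11 3.86-fold higher (1.95, SE 0.29, adjusted p = 0.00014). Gsr was at -0.81 (SE 0.18, adjusted p = 0.0018), Txnrd1 at -0.70 (SE 0.14, adjusted p = 0.0011) and Nfe2l2 at -0.34 (SE 0.12, adjusted p = 0.022).

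Srxn1 at 0.06 (95% interval -0.15 to 0.26), Prdx1 at 0.09 (-0.15 to 0.34) and Gclc at 0.05 (-0.25 to 0.35) did not pass. Groups did not overlap for 6 of 10 genes, against 72.6% of all genes, and the median was -0.52 against -0.21 over all genes. No slide held both groups. With slide as a block, which leans on Thio 1 as the link between the slides, 3 genes kept their call, Gpx4 at -0.72 (adjusted p = 0.011), Gclm at -0.86 (0.02) and Slc7a11 at 2.04 (0.029), while Nqo1 was at -0.67 (0.52), Gsr at -0.53 (0.31), Txnrd1 at -0.20 (0.58) and Nfe2l2 at -0.16 (0.66). Nfe2l2 also lost its call without IL-4c 1, IL-4c 4, Thio+IL-4c 1 or Thio+IL-4c 3, at -0.32 to -0.30, and was at -0.05 (0.69) under quantile normalization. Srxn1 and Prdx1 were called higher under quantile normalization, at 0.36 (0.0034) and 0.35 (0.012), and in the authors' deposited log2 values Srxn1 was called lower at -0.30 (0.021).

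**Figure D4:**
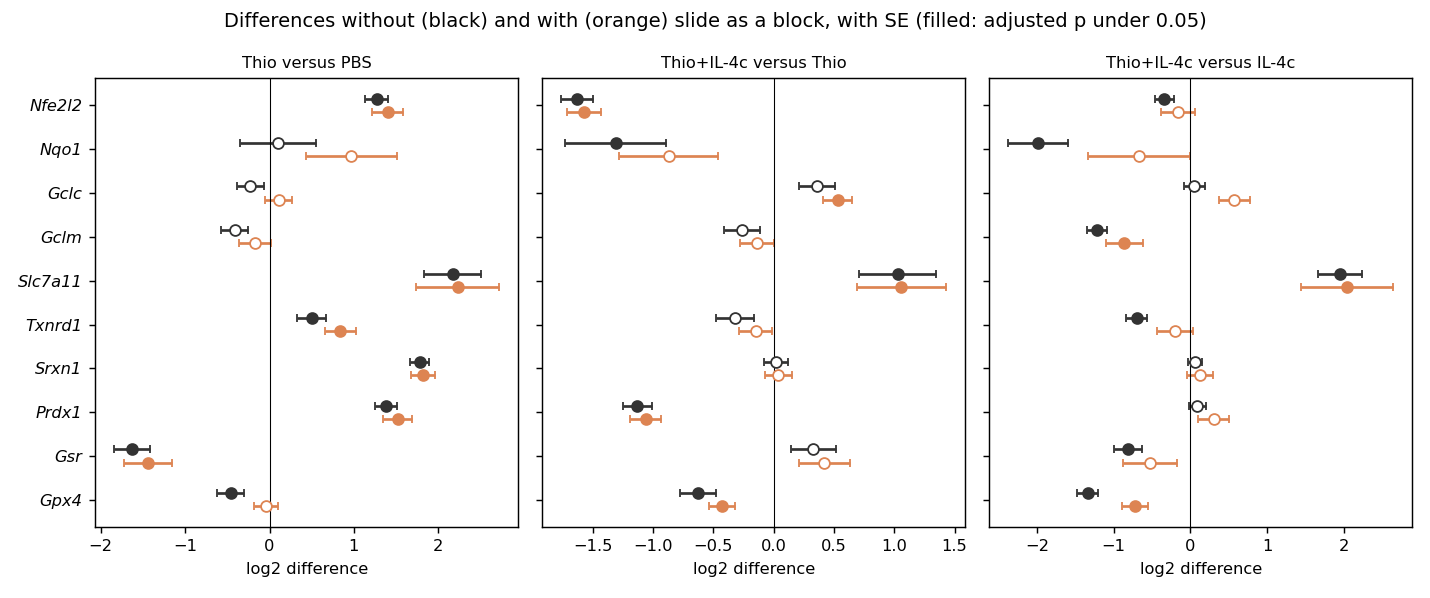
Log2 differences of the 10 genes in the 3 comparisons that cross slides, without (black) and with (orange) slide as a block, with SE as bars and filled points at an adjusted p under 0.05. Nfe2l2, Prdx1 and Srxn1 hardly move in the first 2 panels, while Nqo1 and Gpx4 move towards 0 in the third.

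Across the 14 arrays, levels of the 10 genes did not move as a block. Pearson's r over the 45 pairs of genes ran from -0.79 (Slc7a11 with Gpx4) to 0.89 (Nfe2l2 with Prdx1, and Gclm with Gpx4), with a median of 0.15. There were 16 pairs below 0 and 11 above 0.5. Nfe2l2 correlated with Nqo1 at 0.30. These values carry no test, since arrays of a group share their treatment and slide. Of 18826 other genes, those whose levels were most like Nfe2l2 over the 14 arrays were Bnip3l (r = 0.986), Atg13 (0.984) and Sipa1l2 (0.981). Those most like Srxn1 were Mapre1 (0.984), Treml2 (0.983) and Abracl (0.977), and those most like Prdx1 were Chmp1b (0.985), Stra6l (0.980) and Bcl2l1 (0.977). Those most like Gpx4 were Hltf (0.987), Ucn3 (0.984) and Ccdc61 (0.982), and those most like Gsr were Mcemp1 (0.976), Asz1 (0.972) and Pnp2 (0.966). The nearest to Nqo1 was Snora47 (0.979), to Gclc Kdm6b (0.907), to Gclm Cox15 (0.973), to Slc7a11 Tes (0.965) and to Txnrd1 Rcor1 (0.953).

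Counts in the related gene lists are to be read against the shares of all genes called higher and lower: 16.9% and 15.3% in IL-4c versus PBS, 20.2% and 24.2% in Thio versus PBS, 16.2% and 23.1% in Thio+IL-4c versus Thio, 27.9% and 42.2% in Thio+IL-4c versus IL-4c, and 12.7% and 19.9% in the interaction. Many of the counts are small and move when 1 array is left out.

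Of 12 measured genes that control NRF2, 4 fell with IL-4c in resident cells and 0 rose in limma's test (2 at an unadjusted p under 0.05, and 2 with slide as a block), against 15.3% and 16.9% of all genes, with a median of -0.18. Btrc fell most with IL-4c in resident cells, at -1.13, but its second probe gave 0.00. Keap1, which holds NRF2 for degradation, differed by 0.59 there (adjusted p = 0.11) and by 0.06 in elicited cells (0.87). Without Thio 1 it was called higher in both, at 0.59 (0.0027) and 0.45 (0.024). Bach1, a repressor that competes for NRF2 sites, fell by 0.51 in resident cells (adjusted p = 0.028) and by 0.50 in elicited cells (0.026). Its call was lost without IL-4c 1, IL-4c 3, PBS 2 or PBS 3 in resident cells (at -0.51 to -0.40), and without Thio 2, Thio 3 or any Thio+IL-4c array but the second in elicited cells (at -0.49 to -0.45). Maff, a small MAF partner, had no PBS array well above background, and with Thio it was at least 24.5-fold higher (adjusted p = 0.00014). Its levels were -3.04, -1.04 and -1.27 on the Thio arrays, and its fitted difference went from 4.61 to 5.24 without Thio 1. In Thio versus PBS 2 genes of this list were higher and 1 lower (20.2% and 24.2% of all genes), and with IL-4c in elicited cells 1 rose and 2 fell (16.2% and 23.1%). Without Thio 1, 3 were lower in Thio versus PBS and 3 rose with IL-4c in elicited cells, and 2 rose with IL-4c in resident cells, where 1 rose without Thio 2 or Thio+IL-4c 2. With slide as a block 4 were higher in Thio versus PBS. The 2 that fell in elicited cells were 1 without Thio 3, Thio+IL-4c 1, Thio+IL-4c 3 or Thio+IL-4c 4.

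Of 20 further genes described as NRF2 targets, 6 rose and 6 fell with IL-4c in resident cells (16.9% and 15.3% of all genes), 4 were higher and 9 lower in Thio against PBS (20.2% and 24.2%), and 5 rose and 7 fell with IL-4c in elicited cells (16.2% and 23.1%). The 5 that rose in elicited cells were 3 without Thio 2, Thio 3 or Thio+IL-4c 3. Hmox1, which breaks down haem, rose by 0.54 with IL-4c in resident cells (adjusted p = 0.0098) and was 0.81 higher with Thio (0.0011). Its other probe gave 0.00 with IL-4c in resident cells (adjusted p = 1) and 0.41 with Thio (0.04), so the IL-4c difference rests on 1 of 2 probes. Tkt, of the pentose phosphate pathway that supplies NADPH, rose with IL-4c in resident cells (95% interval 0.76 to 1.24), while the epoxide hydrolase gene Ephx1 fell by 2.30, and by 0.99 on its other probe. Gstm1, a glutathione transferase with close paralogs that its probe may also bind, was at 4.45, 4.62 and 4.18 on the Thio arrays and at 0.54, 0.29, 0.24 and 0.00 with Thio+IL-4c. It was 2.32 higher in Thio than in PBS and fell by 4.15 with IL-4c in elicited cells, with Thio at the top as for Nfe2l2 and Prdx1.

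Of 28 measured genes of glutathione synthesis, turnover and use, 13 rose and 6 fell with IL-4c in resident cells (16.9% and 15.3% of all genes), with a median of 0.32 against -0.01 over all genes. In elicited cells 7 rose and 8 fell (16.2% and 23.1% of all genes), and in the interaction 2 were called higher and 12 lower (12.7% and 19.9%). The 2 became 5 without Thio 1, and also with slide as a block. Gss, which adds glycine to complete glutathione, rose by 1.08 in resident cells (adjusted p = 9.1e-05) and by 1.57 in elicited cells (3.8e-06). Chac1, which degrades glutathione, rose by 2.36 in resident and by 2.85 in elicited cells, the latter 3.52 without Thio 1. Slc3a2, the chaperone subunit of the Slc7a11 exchanger, rose by 0.59 with IL-4c in resident cells (adjusted p = 0.024, but 0.057 to 0.092 without PBS 2, PBS 3 or IL-4c 4), was 1.16 higher with Thio and differed by -0.41 with IL-4c in elicited cells (0.094). Gsto1, an omega-class glutathione transferase, rose by 2.66 with IL-4c in resident cells, and Mgst1, a microsomal transferase, fell by 3.02 in resident and by 2.15 in elicited cells.

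**Figure D5:**
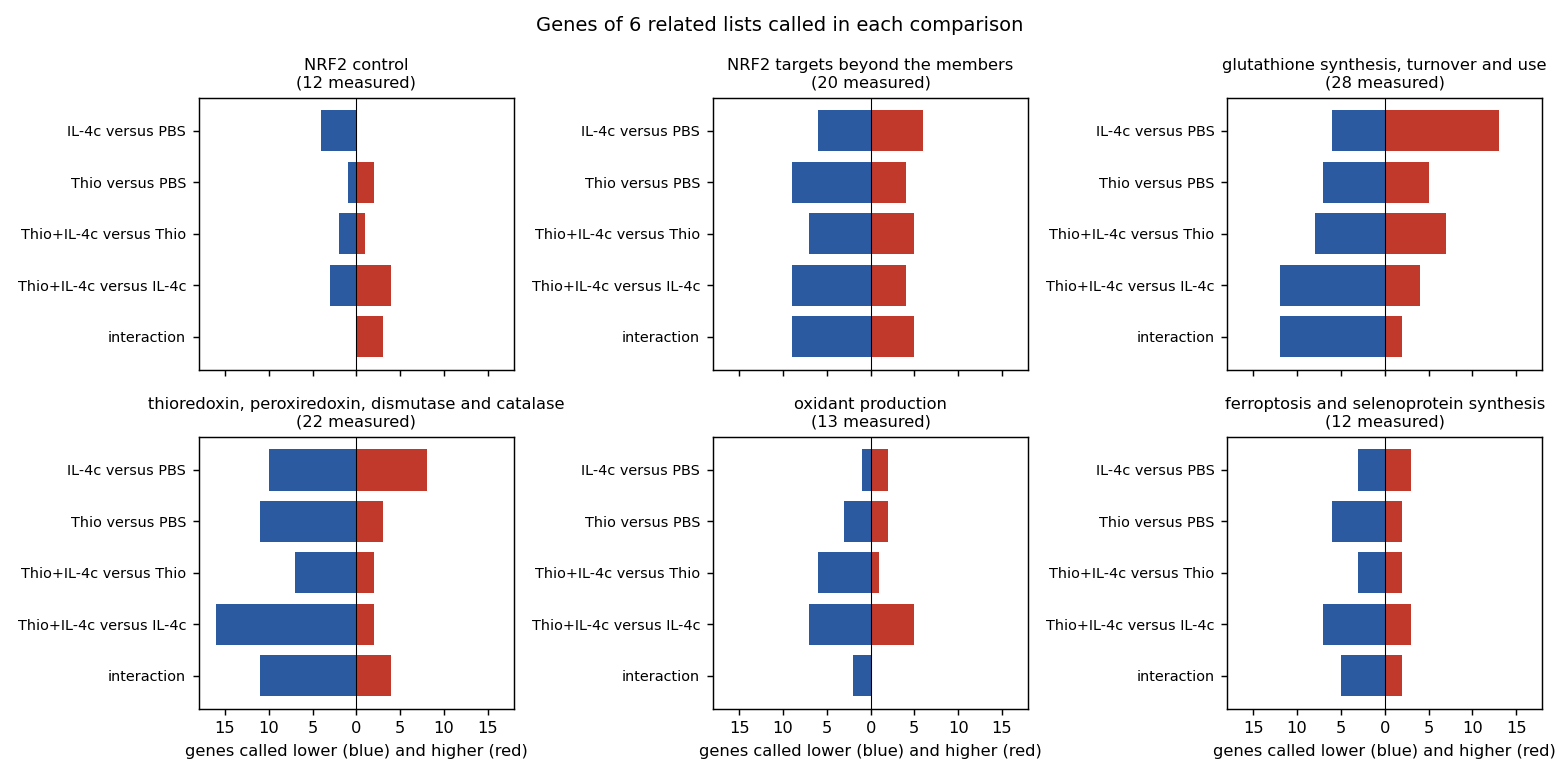
Genes called higher (red, to the right) and lower (blue, to the left) in 6 related gene lists, 1 panel per list and 1 bar per comparison, on an axis of gene counts. In glutathione synthesis, turnover and use, 13 genes rose and 6 fell in IL-4c versus PBS, where 16.9% and 15.3% of all genes did. In Thio+IL-4c versus IL-4c 4 were higher and 12 lower, where 27.9% and 42.2% of all genes were.

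Thioredoxin, peroxiredoxin, dismutase and catalase genes moved both ways with IL-4c in resident cells, 8 up and 10 down of 22 (16.9% and 15.3% of all genes). The mitochondrial peroxiredoxin gene Prdx3 rose by 1.52 and Prdx2 by 1.27, while Txnip, an inhibitor of thioredoxin, fell by 1.81 and the sestrin gene Sesn1 by 2.19. With IL-4c in elicited cells 2 rose and 7 fell (16.2% and 23.1% of all genes), and 3 were higher and 11 lower in Thio against PBS (20.2% and 24.2%). The 2 that rose were 0 without Thio 2, Thio 3, Thio+IL-4c 2 or Thio+IL-4c 3 and 1 without IL-4c 3, IL-4c 4 or Thio+IL-4c 4, and the 3 higher genes were 0 without PBS 1 or Thio 2 and 1 without PBS 2.

 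Of oxidant-producing genes, Cybb, the catalytic subunit of the phagocyte NADPH oxidase, fell by 1.44 with IL-4c in resident cells and by 2.25 in elicited cells. Of 13 such genes measured, 2 rose and 1 fell in resident cells (16.9% and 15.3% of all genes) and 1 rose and 6 fell in elicited cells (16.2% and 23.1%). The 2 became 1 without any 1 array of PBS or of IL-4c, and the 1 that rose in elicited cells became 0 without Thio 1, Thio+IL-4c 1 or Thio+IL-4c 4, and with slide as a block. Of 12 genes of ferroptosis and selenoprotein synthesis, 3 rose and 3 fell in resident cells, and 2 rose and 3 fell in elicited cells, against the same shares. Without Thio 1, and also with slide as a block, 5 fell in resident cells, and without IL-4c 1, IL-4c 4, Thio 2, Thio 3 or Thio+IL-4c 2 only 1 rose in elicited cells. Alox15, a lipoxygenase that oxidises membrane lipids, was at 7.25, 7.24 and 7.05 on the PBS arrays and at -5.21, -1.45 and -2.05 with Thio, and it rose by 4.70 with IL-4c in elicited cells. That rise was 3.54 without Thio 1, its lowest array, and 5.42 without Thio 2, and called each time. In resident cells Alox15 went the other way with IL-4c, to 5.82, 5.94, 5.71 and 6.00. This difference of -1.31 did not pass in the joint fit (adjusted p = 0.17) and was called without Thio 1 (3e-05).

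Markers of other cells moved with the groups, and their part in the results above was not tested. The 5 measured macrophage genes, Itgam and Adgre1 of the sort among them, summed to a signal, in multiples of the 75th percentile, of 351 to 407 on PBS arrays, 232 to 241 with IL-4c, 126 to 167 with Thio and 105 to 116 with Thio+IL-4c. The 5 B cell genes summed to 5.12 to 13.2 on PBS arrays and to 0.796 to 2.17 on the others, and all 5 were well above background on every array. The 6 neutrophil genes summed to 1.40 to 1.48 with PBS, 0.832 to 4.16 with IL-4c, 4.39 to 5.52 with Thio and 6.04 to 14.4 with Thio+IL-4c. They did not move together. From Thio to Thio+IL-4c the group means went from -0.41 to 2.41 for S100a9 and from -3.47 to 1.04 for Retnlg. Those of S100a8 (1.36 to 0.81), Mmp8 (-0.05 to -3.24), Camp (-1.96 to -2.72) and Ngp (-6.43 to -6.51) went down. Camp and Ngp had PBS means of -1 and -5.46. Retnlg was at 1.86 on IL-4c 1 and at -2.28 to -1.79 on the other IL-4c arrays. The 5 mast cell genes summed to 5.80 to 7.02 with PBS, 3.15 to 3.51 with IL-4c, 1.82 to 4.38 with Thio and 1.46 to 1.90 with Thio+IL-4c. The 4 erythroid genes summed to 0.445 to 1.03 with PBS, 1.88 to 3.45 with IL-4c, 0.172 to 1.41 with Thio and 1.49 to 2.00 with Thio+IL-4c, so both sets moved with IL-4c in groups that do not overlap in resident cells. The T and NK cell genes summed to 5.67 to 7.95 with PBS and to 4.04 to 4.98 with IL-4c, and to 5.78 to 6.98 with Thio and 6.57 to 8.77 with Thio+IL-4c. The 4 dendritic cell genes summed to 3.24 to 4.14 with Thio+IL-4c, above the 1.68 to 2.63 of the other groups, but did not move together. With Thio+IL-4c, Flt3 (0.68) and Zbtb46 (0.24) had their highest group means and Xcr1 (-6.70) its lowest. Ccr7, at -0.29, was below its means with PBS (0.76) and IL-4c (0.59). In Thio+IL-4c versus IL-4c, Flt3 and Zbtb46 differed by 4.29 and 1.94. Their second probes gave -0.20 (adjusted p = 0.77 in limma's test) and 0.56 (0.20). Eosinophil genes summed to 0.919 to 3.41 and mesothelial genes to 0.149 to 0.647 over all arrays, the latter 0.458 to 0.647 with Thio. All 6 proliferation genes rose with IL-4c in both kinds of cell, from sums of 6.17 to 11.0 to 98.7 to 121 in resident cells and from 2.40 to 4.02 to 23.0 to 31.6 in elicited ones.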

How the data were processed

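RNA of sorted peritoneal cells was hybridised to Agilent one-colour arrays. The authors deposited scanner tables of spot intensity, background-subtracted by Feature Extraction 11.0.1.1 per the file headers (11.5 per the submitters' processing notes), and a table of their own log2 values whose background correction and normalization are not given in the sources used here. Of 62976 spots per array, 3671 controls and 113 to 165 marked outliers were left out, and none was saturated. Accessions named 27235 of 55681 probes through RefSeq (GRCm38.p6). Processed intensity was scaled to the 75th percentile of its array, log2-transformed and averaged over the spots of a probe. Probes well above background on at least 3 arrays were kept, and the brightest stood for a gene. Groups came from the treatment labels. Differences were fitted with limma 3.58.1 in R 4.3.3 over all 14 arrays, two-sided, and the script was tested on simulated data. The number of arrays limits the precision. The genes and lists were chosen with earlier results of these data known. All 10 genes were named whatever their call. Per list and comparison, up to 2 called genes that rose most and 2 that fell most could be named, and Keap1, Bach1, Hmox1, Gss and Slc3a2 were added for their roles after their values were seen. A further called gene of these lists is not reported here. Alternatives were the normalization, background correction, source of values, dim-probe filter, probes of a gene, slide, replicate number, samples in the fit and each array left out. Normexp was planned on mean signals and used the median signals that the files hold.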

Additional observations from a re-analysis of the deposited data

Results flagged for a closer look

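In 24 groups of 4 arrays, each of 10 genes on its main probe or of a second probe, 2 arrays lay far from the other 3, where chance alone gives about 1 in 20. Gclc was at 1.02 on IL-4c 3, against 0.86 on its nearest neighbour. Gsr was at 2.46 on Thio+IL-4c 1, against 3.23, while its second probe gave 1.27 on that array and 1.45 to 1.78 on the other 3.

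The IL-4c effect differed between elicited and resident cells, by limma's interaction test, for 8 of the 10 genes, where 32.7% of all genes were called. These were Nfe2l2 (-1.62), Nqo1 (-2.08), Gclm (-0.81), Txnrd1 (-1.21), Srxn1 (-1.72), Prdx1 (-1.29), Gsr (0.82) and Gpx4 (-0.88). Gsr lost its call without any array but Thio 1 and Thio+IL-4c 1, and its other probe gave 0.42 (adjusted p = 0.18). Among genes of the related lists, it was higher in elicited cells for Crebbp (2.00), Btrc (0.93), Gsta4 (2.52), Ephx1 (2.17), Glrx2 (0.99), Mgst1 (0.87), Txnip (1.49), Txnrd2 (1.11), Alox15 (6.01) and Acsl4 (0.96). It was lower for Gstm1 (-3.03), Gsta3 (-1.17), Gsto1 (-2.10), Gstk1 (-2.01), Msrb1 (-2.42), Txn1 (-1.24), Ncf4 (-1.20), Sephs2 (-1.73) and Ncoa4 (-1.70). Of 2 further Glrx2 probes, 1 gave the opposite sign at -1.12 (adjusted p = 0.00037) and the other 0.04, and second probes of Btrc (0.53, adjusted p = 0.22) and Ephx1 (0.54, adjusted p = 0.25) did not pass, nor did that of Gsta3 (-1.29, adjusted p = 0.47). Gsta3 also lost its call without Thio 1, at -0.87 (adjusted p = 0.091), and without any of 9 other arrays, at -1.31 to -0.82. Btrc lost its call without PBS 3, at 0.86 (0.052). Alox15 was at 4.85 without Thio 1 and at 6.73 without Thio 2, called each time.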

How the results depend on the processing

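Of 50 pairs of gene and comparison, 31 were called, and 19 of these kept call and direction in each of the 9 other settings and 14 single-array omissions that gave a value. Among them are Srxn1, Prdx1, Nfe2l2 and Gclm in 3 comparisons each, while Slc7a11 gave no value when every array had to be well above background. In the fit of all arrays, 32.2% of all genes were called in IL-4c versus PBS, 44.5% in Thio versus PBS and 39.4% in Thio+IL-4c versus Thio. The shares were 70.0% in Thio+IL-4c versus IL-4c and 32.7% in the interaction. The count of the 10 genes called ran, with 1 array left out, from 4 to 5 in IL-4c versus PBS, 5 to 8 in Thio versus PBS, 3 to 5 in Thio+IL-4c versus Thio, 6 to 7 in Thio+IL-4c versus IL-4c and 7 to 9 in the interaction. It moved by over 1.5 times with only the compared groups in the fit, to 7 in IL-4c versus PBS (47.3% of all genes called) and to 2 in Thio+IL-4c versus Thio (26.4%), and with slide as a block, to 3 in Thio+IL-4c versus IL-4c (26.7%). The replicate block took Thio+IL-4c versus Thio to 3 (34.3%). Whether arrays with the same replicate number share anything is unsaid in the labels. Of 19 same-numbered pairs of arrays, 4 had deviations correlated over 0.1, against 14 of 54 other pairs. With deviations taken from means of 3 or 4 arrays, this count cannot decide it.

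The authors' deposited log2 values shifted the median of all genes from -0.21 to -0.43 in Thio+IL-4c versus IL-4c and from -0.05 to -0.20 in the interaction. There the sign turned for Nfe2l2 (0.29) and Slc7a11 (-0.15) in IL-4c versus PBS, Nqo1 in Thio versus PBS (-0.10), Srxn1 in Thio+IL-4c versus Thio (-0.15), Gclc (-0.29), Srxn1 (-0.30) and Prdx1 (-0.29) in Thio+IL-4c versus IL-4c, and Gclc (-0.14) and Slc7a11 (0.88) in the interaction. The sign also turned for Nqo1 in Thio versus PBS under quantile normalization (-0.12) and normexp (-0.03), for Gclc there with slide as a block (0.11) and for Srxn1 in Thio+IL-4c versus Thio with the replicate block (0.00). With 1 array left out, uncalled values turned for Nqo1 in Thio versus PBS (-0.34 to 0.73), Nfe2l2 in IL-4c versus PBS (-0.09 to 0.07), Srxn1 in Thio+IL-4c versus Thio (-0.05 to 0.07), Gclc in Thio+IL-4c versus IL-4c (-0.03 to 0.10) and Slc7a11 in the interaction (-0.46 to 0.06). The cause was not tested. Signal close to background limits Slc7a11 on the PBS arrays.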
